A study of Homo sapiens with 12 samples.

Results

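Melanoma cells that had received vesicles of M1 macrophages (M1 EV) were compared with cells that had received the same number of vesicles of M2 macrophages (M2 EV). The comparison took the 3 M1 EV and 3 M2 EV columns of the deposited count table, 6 of the 12 RNA libraries of the series, and measured each gene by the transcript with the most counts over all 12. The cells were MV3, an established human melanoma line, in 12-well plates; after 3 h in RPMI with 1% serum depleted of extracellular vesicles (EVs), they were kept for 24 h with 1e10 particles per well. The particles had been collected by ultracentrifugation from THP-1 cells, a human monocytic leukaemia line used as a macrophage model, that were polarized for 48 h to an M1 or an M2 state. The agents used for polarization are not named in the labels. The other 6 libraries, used here for the shared estimate of spread and as a baseline, were 3 of cells with vesicles of M0 macrophages (M0 EV) and 3 of cells with PBS (Ctrl). Replicates are numbered 1 to 3, but the labels do not say whether a number stands for a separate culture or vesicle preparation, so every error and test below rests on differences between libraries that may be technical.

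Macrophages take up different programmes according to the signals they receive. The M1 state is the classical, pro-inflammatory one, rich in tumour necrosis factor and interleukin-1, and the M2 state, typically induced by interleukin-4 or interleukin-13, is associated with repair and matrix remodelling. Tumour cells exposed to inflammatory signals commonly respond through NF-kB, a family of transcription factors (RELA, RELB, REL, NFKB1 and NFKB2) that is held in the cytoplasm by inhibitors such as NFKBIA and that drives chemokines, cytokines, adhesion receptors, survival factors and its own inhibitors. Extracellular vesicles carry proteins, lipids and RNA between cells, and setting the vesicles of both states side by side at 1 dose asks which responses of the melanoma cells depend on the state of the donor macrophage.

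The 6 libraries held 9763032, 11048619 and 10201852 counts assigned to genes in M1 EV, and 10207775, 14379483 and 13125557 in M2 EV. In a principal component analysis of these 6 libraries the first component held 55.2% of the variance and separated the groups, with M1 EV libraries at 14.17 to 16.14 and M2 EV libraries at -15.4 to -14.68. Libraries of 1 group differed from each other by 1.57 to 1.67 times counting noise in M1 EV and by 1.26 to 1.69 times in M2 EV (chi-square per degree of freedom). Genes that define macrophages were at or near 0 in both groups: over 3 libraries, PTPRC (CD45) had 2 counts in M1 EV and 0 in M2 EV, CD14 had 3 and 5, CSF1R had 16 and 15, SPI1 had 0 and 1, and ITGAM and TYROBP had 0 in both. Of 28 macrophage markers, 12 had no count in any of the 6 libraries and 4 passed the filter on low counts. Of those 4, CTSS, a lysosomal cysteine protease, and CD68, a lysosomal membrane glycoprotein, were higher in M1 EV. The summed level of the 4 was 72.9 to 74.7 CPM (the count scaled to the size of the library) in M1 EV against 63.5 to 66.1 in M2 EV. CTSS averaged 3.25 ± 0.951 CPM in M1 EV and 0.889 ± 0.0977 CPM in M2 EV (SD, n = 3 each), and CD68 66.9 ± 0.732 against 59.9 ± 1.17 CPM, a difference that lost its call with DESeq2 (adjusted p = 0.0591). Genes of the pigment cell lineage were mixed. Over 3 libraries SOX10 had 0 counts in M1 EV and 2 in M2 EV, MITF had 28 and 26, PMEL had 2 in each, and TYR, DCT and S100B had none. MLANA, a further defining marker, averaged 1.09 ± 0.410 CPM in M1 EV and 0.907 ± 0.199 CPM in M2 EV (SD, n = 3 each). Of the 28 genes of this lineage 12 passed the filter, among them MC1R and GPR143. The summed level of these 12 was 569 to 585 CPM in M1 EV and 595 to 597 CPM in M2 EV.

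Of 13113 genes tested, 3229 differed between M1 EV and M2 EV at an adjusted p below 0.05 (edgeR's quasi-likelihood test with Benjamini-Hochberg adjustment), which is 24.6% of them. Of these, 1649 (12.6% of the genes tested) were higher in M1 EV and 1580 (12%) were lower. The shares given for gene lists below, higher before lower, are to be read against these 2 shares. Most of these differences were small, with a median size of 0.24 on the log2 scale, and 119 genes (0.907%) differed at least 2-fold, 72 of them higher (0.549%) and 47 lower (0.358%). The directions parted with size. Among called genes that differed by less than 0.25 on the log2 scale, 983 were higher and 746 lower, and between 0.5 and 1, 157 were higher and 225 lower. At 2 or more, 19 were higher and 2 lower. When tested against a change of 1.2-fold in place of 0 (edgeR's glmTreat), 228 genes passed as higher and 249 as lower, 477 in all, and DESeq2 called 2098 of the 3229. In 4777 genes (36.4%) the M1 EV libraries did not overlap with the M2 EV libraries. By comparison, M2 EV differed from Ctrl in 6 genes (0.0458%).

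**Figure D1:**
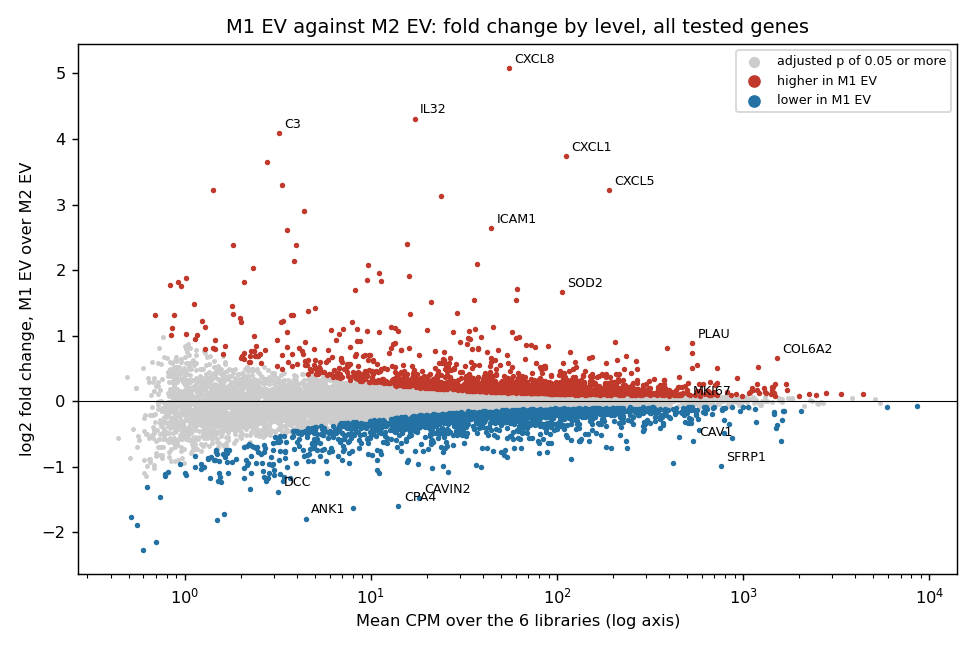
Log2 fold change of M1 EV over M2 EV (vertical axis) against the mean level over the 6 libraries in CPM (log axis) for the 13113 tested genes, with 1649 genes called higher in red, 1580 called lower in blue and the others in grey. CXCL8, IL32, C3, CXCL1 and CXCL5 stand between 3.22 and 5.08, while ANK1, CPA4 and CAVIN2 lie between -1.79 and -1.48.

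CXCL8, a neutrophil-attracting chemokine, had the largest fold change of all tested genes, followed by IL32 and C3 and then by other chemokines of its kind. All 5 tested members of the list of 7 such chemokines (CXCL8, CXCL1, CXCL5, CXCL3 and CXCL2) were higher in M1 EV, with a median log2 fold change of 3.64 against -0.0033 over all tested genes, and all 5 also passed the test against 1.2-fold. CXCL8 (interleukin-8), which draws neutrophils through the receptors CXCR1 and CXCR2, stood at 105, 104 and 112 CPM in the M1 EV libraries and at 3.22, 3.05 and 3.20 CPM in the M2 EV libraries. Every M1 EV library was thus far above every M2 EV library, and the difference was 5.08 ± 0.076 on the log2 scale (SE; adjusted p = 8.81e-37), a 33.8-fold higher level. M0 EV averaged 2.84 CPM and Ctrl 1.96 CPM of CXCL8. CXCL1, a growth-regulated chemokine first described in melanoma, reached 221, 203 and 197 CPM in M1 EV libraries against 16.6, 14.9 and 15.4 CPM in M2 EV libraries (3.73 ± 0.056, adjusted p = 8.81e-37). CXCL5 reached 350, 331 and 347 CPM in M1 EV libraries against 37.6, 35.7 and 37.1 CPM in M2 EV libraries (3.22 ± 0.043, adjusted p = 3.05e-38). The 2 remaining members were low: CXCL3 averaged 5.12 ± 0.688 CPM in M1 EV and 0.400 ± 0.128 CPM in M2 EV, and CXCL2 6.03 ± 0.959 and 0.616 ± 0.270 CPM (SD, n = 3 each), differences of 3.64 and 3.29 on the log2 scale. The transcript that stands for CXCL1 is a non-coding RefSeq variant that overlaps the coding one, so its counts are those of that row. Since CXCL1, CXCL2 and CXCL3 are near-identical in sequence, the counts may split reads between them. RNA was pooled over the cells of a well, so more expressing cells and more RNA per cell cannot be told apart in any of these values.

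The 5 chemokine genes lie within 1 cluster on chromosome 4. In the hg38 build, CXCL8 spans 73740569 to 73743716, CXCL1 73869393 to 73871308, CXCL5 73995642 to 73998677, CXCL3 74036589 to 74038689 and CXCL2 74097040 to 74099195. CXCL6, a further member of the list, had no count in the 6 libraries. Of 18 other chemokines 1, CXCL16, passed the filter on low counts and it was not called (0.00 ± 0.246 on the log2 scale, adjusted p = 0.995), while 13 had no count at all. CXCL10 had 0 counts in both groups and CCL2, the main attractant of monocytes, had 4 counts over the 3 M1 EV libraries against 0 over the 3 M2 EV libraries. CCL5 had 16 counts in M1 EV and 4 in M2 EV, too few to be tested. A count of 0 over a group allows up to 3 counts, or 0.0973 CPM in M1 EV and 0.0794 CPM in M2 EV, and covers counting error only.

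The promoters shown are of the 4 genes with the smallest adjusted p among 10 inflammatory genes, taken if higher in M1 EV. These 10 were chosen with earlier results of these data known. All 4 promoters hold a match to a kappaB string, the kind of site that NF-kB dimers bind. They run from 250 bases before to 50 bases after the RefSeq transcription start (GRCh38.p14) and are written 5′ to 3′ on the strand of the gene, with matches to GGNNTTTCC on either strand in capitals.
CXCL5 promoter, chr4:73998628-73998927, minus strand: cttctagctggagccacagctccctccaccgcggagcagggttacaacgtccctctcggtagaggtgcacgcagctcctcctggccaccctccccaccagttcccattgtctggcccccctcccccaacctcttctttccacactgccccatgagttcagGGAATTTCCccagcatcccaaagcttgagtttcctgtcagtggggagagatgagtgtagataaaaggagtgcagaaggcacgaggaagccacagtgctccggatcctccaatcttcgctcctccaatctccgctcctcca
CXCL8 promoter, chr4:73740319-73740618, plus strand: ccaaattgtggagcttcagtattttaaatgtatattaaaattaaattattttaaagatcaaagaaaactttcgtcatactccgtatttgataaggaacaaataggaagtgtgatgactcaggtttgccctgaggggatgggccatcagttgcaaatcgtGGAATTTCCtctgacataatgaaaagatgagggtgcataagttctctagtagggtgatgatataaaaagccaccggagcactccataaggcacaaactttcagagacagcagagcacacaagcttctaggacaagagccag
CXCL1 promoter, chr4:73869143-73869442, plus strand: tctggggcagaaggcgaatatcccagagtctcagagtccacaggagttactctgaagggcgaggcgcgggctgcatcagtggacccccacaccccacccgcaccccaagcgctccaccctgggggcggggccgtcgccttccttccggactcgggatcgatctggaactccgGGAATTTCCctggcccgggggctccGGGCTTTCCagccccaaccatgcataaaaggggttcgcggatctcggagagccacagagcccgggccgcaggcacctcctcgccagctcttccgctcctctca
ICAM1 promoter, chr19:10270870-10271169, plus strand: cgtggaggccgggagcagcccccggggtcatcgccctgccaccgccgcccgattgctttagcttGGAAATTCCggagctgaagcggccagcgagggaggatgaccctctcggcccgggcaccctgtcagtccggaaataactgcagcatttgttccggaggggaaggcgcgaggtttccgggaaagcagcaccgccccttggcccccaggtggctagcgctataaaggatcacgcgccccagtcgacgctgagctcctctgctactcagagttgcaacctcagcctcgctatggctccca
CXCL5 and CXCL8 carry the same 9 letters, GGAATTTCC, with the first base at -90 and -91 from the start. CXCL1 carries GGAATTTCC at -78 and a second match, GGGCTTTCC, at -53, and ICAM1 carries GGAAATTCC at -186, a match on the opposite strand. Of the 1342 promoters found for the 1649 genes higher in M1 EV, 9.54% held at least 1 match, against 6.26% of all 27305 RefSeq promoters of this length. For 3 further strings, again on both strands, the shares in the promoters of higher genes and in all promoters were 4.47% and 7.76% for the AP-1 string TGANTCA, 11% and 14% for the TEAD string GGAATG, and 3.28% and 3.65% for the interferon string (GAAA, any 2 bases, GAAA). None of the 4 strings contains another. Under 80% of the tested genes (10485 of 13113) and of the lower genes (1263 of 1580) had a promoter in the table, so the check is void for those sets. Among those 10485 tested genes the shares were 6.57% for the kappaB string, 4.6% for AP-1, 10.9% for TEAD and 2.82% for the interferon string. The AP-1 and TEAD shares of these 10485 lay close to those of the higher genes. In the 1263 lower genes the shares were 4.43% for the kappaB string, 5.86% for AP-1, 12% for TEAD and 2.53% for the interferon string. Of the 72 genes higher by at least 2-fold, 53 had a promoter in the table, again under 80%. In these 53 the shares were 32.1% for the kappaB string, 18.9% for AP-1, 7.55% for TEAD and 5.66% for the interferon string. No difference between these shares was tested, and no conclusion is drawn from the sets with under 80% of promoters found. A match is a string of letters and not a measured binding site.

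**Figure D2:**
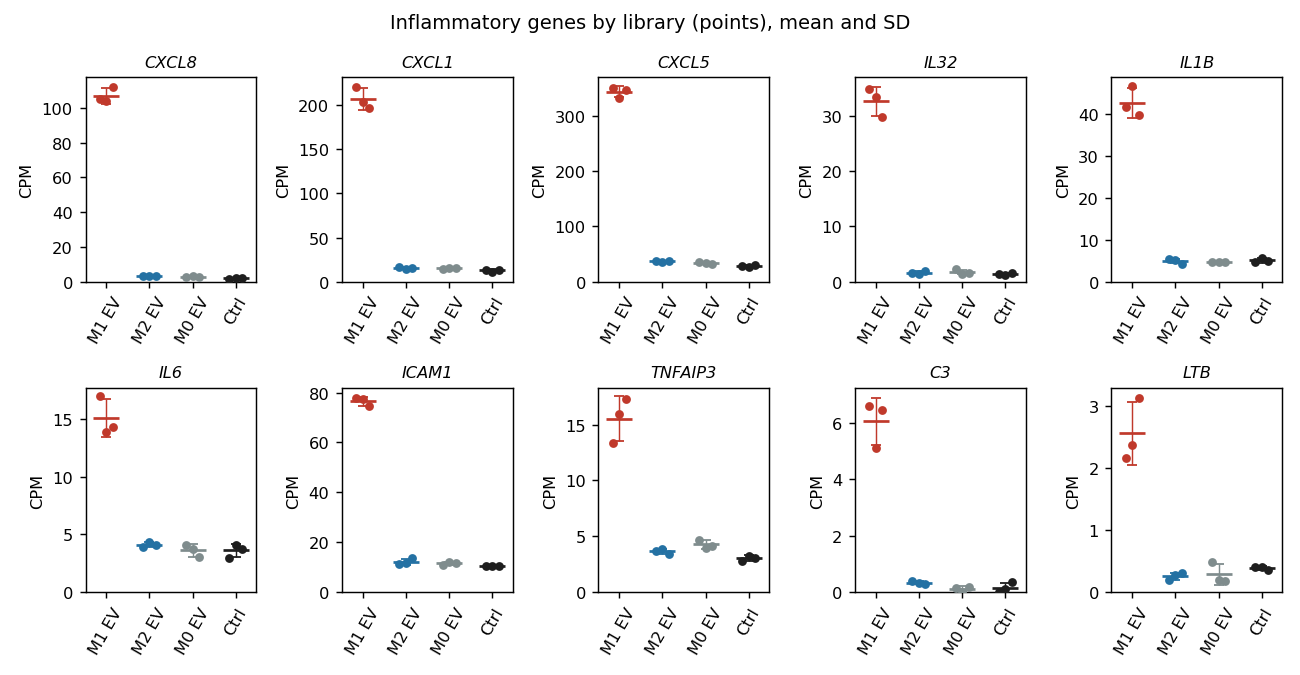
Level in CPM (vertical axes, from 0) of 10 inflammatory genes in every library; points are libraries, horizontal lines are means and error bars are SD (n = 3), for M1 EV, M2 EV, M0 EV and Ctrl. In each panel the 3 M1 EV points lie above the other 9, as for CXCL8 with 104 to 112 CPM in M1 EV and 3.05 to 3.22 CPM in M2 EV.

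Secreted cytokines and growth factors were mostly higher in M1 EV. Of 21 tested genes of this list, 13 were higher and 2 lower (61.9% and 9.52%, against 12.6% and 12% of all tested genes), with a median of 0.63. IL32, a pro-inflammatory cytokine found in humans and other primates but not in mice, measured 34.9, 33.4 and 29.8 CPM in M1 EV libraries and 1.56, 1.39 and 1.98 CPM in M2 EV libraries (log2 fold change 4.31 ± 0.12, adjusted p = 3.89e-27). IL1B, a secreted ligand of the interleukin-1 receptor, measured 41.8, 46.7 and 39.8 CPM in M1 EV libraries against 5.37, 5.14 and 4.26 CPM in M2 EV libraries (3.13 ± 0.089, adjusted p = 5.27e-27). The M2 EV values of IL1B lay around the Ctrl mean of 5.07 CPM. IL6, which signals through IL6ST and STAT3, measured 16.9, 13.9 and 14.3 CPM in M1 EV and 3.91, 4.30 and 4.11 CPM in M2 EV (1.86 ± 0.12, adjusted p = 1.15e-15). CSF3, the growth factor of granulocytes, again represented by a non-coding variant, averaged 7.75 ± 0.874 CPM in M1 EV and 1.03 ± 0.236 CPM in M2 EV (2.90 ± 0.20). LTB, which is not in the list but is among the 12 largest rises and encodes the membrane anchor of the lymphotoxin heterotrimer, averaged 2.56 ± 0.511 and 0.259 ± 0.0569 CPM (SD, n = 3 each; 3.22 ± 0.33). Other members, named after their values were seen, were IL1A (1.42), the EGF receptor ligands EREG (0.91) and HBEGF (0.63), IL11 (0.71), the STAT3 activator LIF (0.66), NRG1 (0.66), CSF1, the growth factor of macrophages (0.60), FGF2 (0.35) and PDGFA (0.29). The lower pair was PDGFB (-0.35 ± 0.11, adjusted p = 0.0191) and CLCF1 (-0.54 ± 0.18, adjusted p = 0.0238), and neither was called by DESeq2. TNF had 4 counts over the M1 EV libraries and 0 over the M2 EV libraries, and CSF2 had 23 and 5.

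The subunits and regulators of NF-kB were mostly higher in M1 EV as well. Of 23 tested members 16 were higher in M1 EV and 1 was lower, with a median of 0.42. These were 69.6% and 4.35%, against 12.6% and 12% of all tested genes. Of the higher genes, 12 also passed the test against 1.2-fold. The subunits of the non-canonical branch differed most among the 5 subunits: RELB measured 54.5, 55.5 and 49.6 CPM in M1 EV against 17.8, 19.0 and 17.8 CPM in M2 EV (1.54 ± 0.065, adjusted p = 3.22e-21), and NFKB2 differed by 0.85 ± 0.047. NFKB1 followed with 0.58 ± 0.041, REL with 0.35 ± 0.086 and RELA, the main activating subunit, with 0.19 ± 0.042. The feedback inhibitors were higher as well. TNFAIP3 (A20), a ubiquitin-editing enzyme, measured 13.3, 16.0 and 17.3 CPM in M1 EV against 3.71, 3.89 and 3.43 CPM in M2 EV (2.08 ± 0.12, adjusted p = 4.95e-17). NFKBIA, the inhibitor that retains NF-kB in the cytoplasm, measured 62.8, 61.6 and 61.6 CPM against 28.1, 29.4 and 26.7 CPM (1.14 ± 0.055, adjusted p = 3.16e-19). TNIP1, a partner of TNFAIP3, differed by 0.90 ± 0.035 and NFKBIZ, a nuclear co-regulator, by 1.92 ± 0.097. The exception was MAP3K14 (NIK), the kinase that starts the non-canonical branch: it measured 33.0, 38.7 and 38.4 CPM in M1 EV libraries against 66.3, 62.3 and 61.4 CPM in M2 EV libraries (-0.78 ± 0.058, adjusted p = 9.55e-14), while its partner genes RELB and NFKB2 were higher. The kinase subunits CHUK, IKBKB and IKBKG were not called.

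Adhesion and receptor genes that respond to inflammatory signals gave 13 higher and 2 lower of 26 tested (50% and 7.69%, median 0.26). ICAM1, the endothelial and tumour cell ligand of leukocyte integrins, measured 77.9, 77.3 and 74.5 CPM in M1 EV against 11.5, 11.7 and 13.6 CPM in M2 EV, with no overlap (2.64 ± 0.061, adjusted p = 4.14e-30). SOD2, the mitochondrial superoxide dismutase, measured 160.3, 158 and 166 CPM against 46.8, 52.3 and 53.3 CPM (1.66 ± 0.043, adjusted p = 3.55e-28). CD82, a tetraspanin known as a suppressor of metastasis, averaged 26.3 ± 1.70 CPM in M1 EV and 4.99 ± 0.603 CPM in M2 EV (SD, n = 3 each; 2.40 ± 0.094, adjusted p = 3.36e-22). Among genes named after their values were seen, TNFRSF9 (4-1BB) differed by 2.38 ± 0.18 and PTGS2, the inducible prostaglandin synthase, by 1.34 ± 0.25. The shared receptor chain IL6ST (gp130; non-coding variant) differed by 0.59 ± 0.041, whereas IL6R, which binds interleukin-6 itself, was lower (-0.39 ± 0.084, adjusted p = 0.000427). TNFRSF1A, IL1R1 and IFNGR1, receptors for tumour necrosis factor, interleukin-1 and interferon-gamma, were not called.

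Complement genes went in both directions. Of 11 tested, 4 were higher and 4 lower (36.4% each). The higher genes encode the start and the centre of the cascade: C3, the central component (chromosome 19, 6677704 to 6720650), measured 6.61, 5.11 and 6.47 CPM in M1 EV against 0.391, 0.347 and 0.305 CPM in M2 EV (4.09 ± 0.27, adjusted p = 5.47e-15). C1S, a protease of the first complex, measured 6.92, 5.66 and 5.69 CPM against 1.07, 0.833 and 1.07 CPM (2.62 ± 0.20, adjusted p = 1.44e-13). C1R, its partner protease, differed by 0.92 ± 0.11 and CFB, a protease of the alternative pathway, by 2.04 ± 0.25. The lower genes were CLU, a soluble inhibitor of the terminal complex (-0.65 ± 0.075, adjusted p = 8e-09), C5 (-0.50 ± 0.15), and the membrane inhibitors CD55 (-0.21 ± 0.065) and CD59 (-0.09 ± 0.029). All 4 higher genes and 1 of the lower genes passed the test against 1.2-fold, and DESeq2 called 2 of the lower genes.

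Class I antigen presentation was higher in part, by small amounts. Of 22 tested genes 14 were higher in M1 EV and 0 lower (63.6% higher, median 0.25), and 6 passed the test against 1.2-fold. HLA-B, a classical class I heavy chain, measured 89.0, 81.1 and 78.0 CPM in M1 EV and 44.3, 38.9 and 43.5 CPM in M2 EV (0.97 ± 0.061, adjusted p = 8.02e-16). HLA-C differed by 0.29 ± 0.043 and B2M, the light chain, by 0.22 ± 0.039. The class I heavy chains are alike in sequence and their counts may share reads. Some genes of peptide supply were higher: TAPBP, which docks class I molecules on the peptide transporter, differed by 0.36 ± 0.039, the transporter subunits TAP1 by 0.52 ± 0.072 and TAP2 by 0.32 ± 0.039, and the immunoproteasome subunit PSMB9 by 0.42 ± 0.080. Others, TAPBPL, PSMB8 and the trimming enzymes ERAP1 and ERAP2, were not called. NLRC5, the transactivator of class I genes, averaged 30.1 ± 0.842 CPM in M1 EV and 20.5 ± 0.782 CPM in M2 EV (SD, n = 3 each; 0.55 ± 0.068, adjusted p = 3.7e-08).

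Of 21 tested genes of the interferon-gamma list 8 were higher (38.1%) and 0 lower, and 2 passed the test against 1.2-fold. GBP1, an interferon-induced GTPase, averaged 34.1 ± 0.776 CPM in M1 EV and 22.9 ± 0.346 CPM in M2 EV (0.57 ± 0.065, adjusted p = 5.57e-09). GBP2 differed by 0.64, SOCS3, a feedback inhibitor of STAT3, by 0.36 and UBE2L6 by 0.26. IRF1 (0.08 ± 0.047, adjusted p = 0.206) and the checkpoint ligand gene CD274 (0.02 ± 0.145, adjusted p = 0.956) were not called. Of 33 genes of the type I interferon list, 6 were higher and 4 lower, with 23 not called. These shares, 18.2% and 12.1%, were near the 12.6% and 12% of all tested genes. The lower genes included IFIT1, which averaged 6.56 ± 0.633 CPM in M1 EV and 10.7 ± 0.800 CPM in M2 EV (-0.72 ± 0.12, adjusted p = 1.87e-05), IFIT2 (-0.81 ± 0.11) and SAMD9L (-0.49 ± 0.067), all antiviral effectors. OAS3, which makes an activator of RNase L, was higher (0.33 ± 0.049), although 0 of the 6 higher genes passed the test against 1.2-fold and DESeq2 called 2 of them. ISG15 and MX1, standard reporters of type I interferon, were not called.

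Genes that respond to interleukin-4, a signal that typically makes M2 macrophages, were mostly untested or not called. Of 19 genes of the interleukin-4 and STAT6 list 8 were tested, of which 2 were higher in M1 EV and 1 was lower (25% and 12.5%). The other 5 were not called, among them STAT6 itself (0.03 ± 0.042, adjusted p = 0.627). IL4R, the receptor chain, was higher in M1 EV (75.6 ± 2.72 CPM against 58.3 ± 1.86 CPM in M2 EV; SD, n = 3 each; 0.38 ± 0.049). PPARG was lower (-0.38 ± 0.089, adjusted p = 0.00138). TGM2, transglutaminase 2, differed by 0.10 ± 0.030 (adjusted p = 0.0104), a call that was lost without M1 EV replicate 2 (adjusted p = 0.087). None of these 3 passed the test against 1.2-fold.

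Genes of pericellular proteolysis differed in both directions. Of 32 tested proteases and inhibitors 13 were higher and 10 lower (40.6% and 31.2%), with a median of 0.02. PLAU (urokinase; chromosome 10, 73908832 to 73917494), which activates plasminogen, measured 686, 702 and 681 CPM in M1 EV libraries and 372, 377 and 372 CPM in M2 EV libraries (0.88 ± 0.031, adjusted p = 9.04e-24). Its receptor PLAUR differed by 0.44 ± 0.042, and inhibitors of the enzyme were higher too: SERPINE2 differed by 0.63 ± 0.039 and SERPINB2 (PAI-2) by 1.70 ± 0.13. The enzyme, its receptor and these inhibitors were thus all higher. MMP14, a membrane-anchored matrix metalloproteinase that activates MMP2, measured 665, 693 and 651 CPM against 463, 468 and 439 CPM (0.55 ± 0.032, adjusted p = 7.17e-17), and MMP2 differed by 0.32 ± 0.035. The interstitial collagenase MMP1 was low, at 4.96, 4.01 and 3.53 CPM in M1 EV and 1.37, 2.43 and 2.51 CPM in M2 EV (0.93 ± 0.21, adjusted p = 0.000621), and stromelysin MMP3 was at 1.96, 1.28 and 1.18 CPM against 0.586, 0.486 and 0.228 CPM (1.76 ± 0.38, adjusted p = 0.000459). In the other direction stood TIMP2, an inhibitor of metalloproteinases (-0.33 ± 0.030), the lysosomal cathepsins CTSB (-0.17) and CTSD (-0.14), and CPA4, a secreted carboxypeptidase, at 6.40, 6.93 and 7.45 CPM in M1 EV against 22.1, 20.4 and 21.0 CPM in M2 EV (-1.60 ± 0.097, adjusted p = 2.94e-16). Of the 10 lower genes 3 passed the test against 1.2-fold.

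Matrix proteins were among the lists with the most calls, in opposite directions within families. Of 34 tested genes 13 were higher and 14 lower (38.2% and 41.2%), with a median of -0.14. Collagen VI, a beaded microfibril of the pericellular matrix, was higher in all 3 chains tested: COL6A2 (chromosome 21, 46098112 to 46132848) measured 1851, 1859 and 1836 CPM in M1 EV libraries and 1227, 1149 and 1143 CPM in M2 EV libraries (0.66 ± 0.030, adjusted p = 7.33e-20), COL6A1 differed by 0.52 ± 0.032, and COL6A3 by 0.68 ± 0.12. THBS1 (thrombospondin-1) averaged 662 ± 21.0 CPM in M1 EV and 396 ± 16.9 CPM in M2 EV (0.74 ± 0.033, adjusted p = 1.66e-20). The laminins, heterotrimers of the basement membrane, went the other way. Of 6 tested chains described here, singled out after their values were seen, 5 were lower: LAMA4 (-0.68 ± 0.069), LAMA5 (-0.60 ± 0.055), LAMB2 (-0.39 ± 0.045), LAMB1 (-0.35 ± 0.033) and LAMC1 (-0.13 ± 0.030). LAMB3 was higher, at 34.7, 40.6 and 36.5 CPM in M1 EV against 18.4, 18.0 and 17.7 CPM in M2 EV (1.05 ± 0.075, adjusted p = 2.52e-14). The 2 genes of the list that were lower with the largest fold changes were collagens: COL5A3 measured 1.03, 0.547 and 0.686 CPM against 2.54, 2.08 and 2.89 CPM (-1.72 ± 0.30, adjusted p = 2.49e-05), and COL8A1 26.8, 24.6 and 23.1 CPM against 49.8, 47.6 and 48.6 CPM (-0.97 ± 0.060, adjusted p = 4.21e-16). FN1 (fibronectin) was lower by a small amount (1366 ± 6.42 CPM in M1 EV, 1564 ± 27.3 CPM in M2 EV; -0.20 ± 0.033) and did not pass the test against 1.2-fold. COL1A1 was higher by 0.26 ± 0.029.

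The receptors of this matrix, the integrins, gave 7 higher and 4 lower genes of 14 tested (50% and 28.6%). Of these, 3 of the higher and 1 of the lower passed the test against 1.2-fold. Receptors of fibronectin and collagen were higher: ITGA5 averaged 266 ± 4.85 CPM in M1 EV and 189.8 ± 5.45 CPM in M2 EV (0.49 ± 0.034, adjusted p = 1.7e-14), ITGA2 (non-coding variant) 320.0 ± 20.4 and 209 ± 9.56 CPM (0.62 ± 0.046), and ITGAV 199 ± 7.23 and 149.8 ± 4.17 CPM (SD, n = 3 each; 0.41 ± 0.037). The beta chain shared by most of them, ITGB1, differed by 0.18 ± 0.029. The alpha chains of the laminin receptors were lower, ITGA3 by -0.26 ± 0.033 (518 ± 20.2 CPM in M1 EV, 622 ± 15.9 CPM in M2 EV) and ITGA6 by -0.21 ± 0.031. ITGB4, the laminin-binding partner of ITGA6, was not called (-0.47 ± 0.19, adjusted p = 0.0919). The collagen receptors were not uniform, since ITGA1 was higher (0.28 ± 0.068) and ITGA10 (-0.97 ± 0.19) and ITGA11 (-0.33 ± 0.050) were lower.

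**Figure D3:**
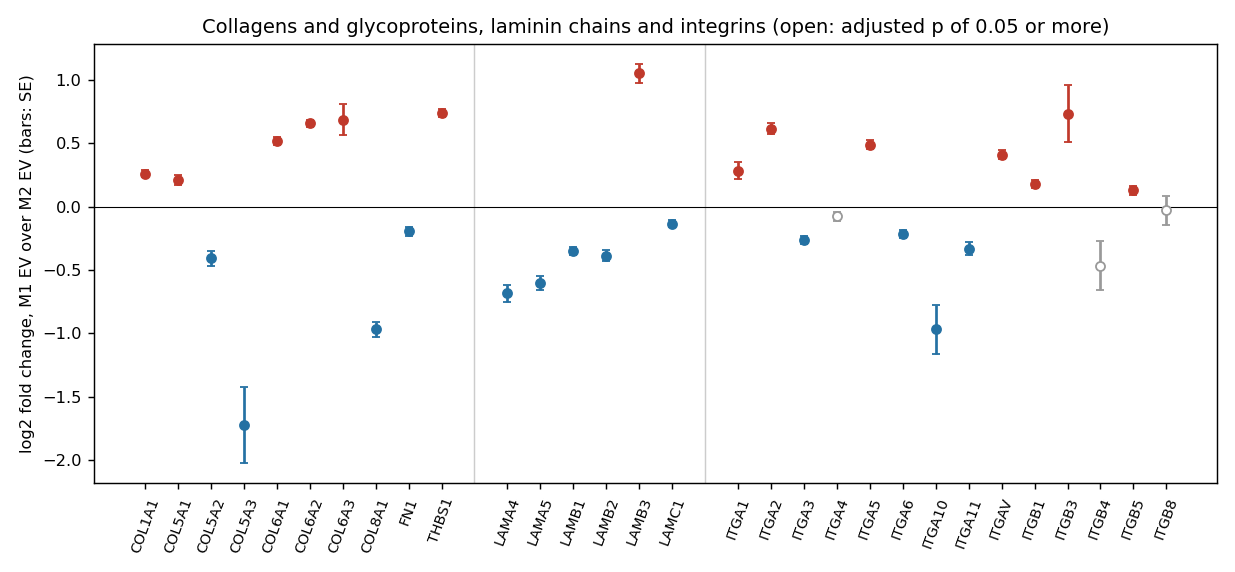
Log2 fold change of M1 EV over M2 EV (vertical axis; bars are SE) for 10 collagens and glycoproteins, 6 laminin chains and 14 integrin chains, with filled points for an adjusted p below 0.05 (red higher, blue lower) and open points otherwise. Collagen VI chains lie at 0.52 to 0.68 and 5 laminin chains between LAMA4 at -0.68 and LAMC1 at -0.13, with LAMB3 apart at 1.05.

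The genes with the largest falls, taken at a mean of at least 1 CPM and with libraries that did not overlap, did not belong to 1 pathway, and most were low in level. ANK1, an adaptor between the membrane and the spectrin cytoskeleton, measured 1.86, 1.46 and 2.65 CPM in M1 EV against 7.52, 6.25 and 7.01 CPM in M2 EV (-1.79 ± 0.19, adjusted p = 1.45e-09). CAVIN2, a coat protein of caveolae, the small pits of the plasma membrane, measured 10.9, 9.12 and 8.53 CPM against 27.0, 25.8 and 27.0 CPM (-1.48 ± 0.098, adjusted p = 4.03e-15). Caveolar genes were not counted as a list. CAV1, the structural protein of caveolae, averaged 428 ± 4.27 CPM in M1 EV and 651 ± 13.1 CPM in M2 EV (-0.60 ± 0.030, adjusted p = 5.05e-19) and CAVIN1 differed by -0.28 ± 0.029. DCC, a netrin receptor, averaged 1.79 ± 0.327 CPM in M1 EV and 4.58 ± 0.710 CPM in M2 EV (-1.38 ± 0.19, adjusted p = 4.47e-07), and UNC5B, a further netrin receptor, measured 6.61, 6.93 and 7.65 CPM against 15.3, 14.6 and 15.5 CPM (-1.09 ± 0.11, adjusted p = 2.24e-10). The semaphorin SEMA3B was lower by -1.22 ± 0.19, while SLIT2, a ligand of Robo receptors, was higher (147 ± 5.43 CPM against 87.5 ± 3.84 CPM; 0.75 ± 0.042). The remaining large falls were LRRN4CL (-1.33), ROPN1L (-1.23) and the orphan receptor GPR17 (-1.22), all at a mean of 0.940 to 2.03 CPM in M1 EV and 2.20 to 4.74 CPM in M2 EV.

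Among abundant transcripts the largest absolute falls were in AHNAK, a very large scaffold protein, with 1206, 1325 and 1279 CPM in M1 EV against 1869, 2037 and 1874 CPM in M2 EV (-0.60 ± 0.066, adjusted p = 3e-09), and in SFRP1, a secreted antagonist of Wnt ligands. SFRP1 measured 512, 511 and 505 CPM against 992, 1002 and 1037 CPM, with little spread within each group (-0.99 ± 0.029, adjusted p = 1.48e-26). LMNA, which encodes the nuclear lamins A and C, differed by -0.41 ± 0.031 and PLEC (plectin), a linker of the cytoskeleton, by -0.36 ± 0.048. Smaller shifts in very abundant genes were ACTB (beta-actin; 0.11 ± 0.024, adjusted p = 0.000589), ENO1 (-0.09 ± 0.026, adjusted p = 0.00802) and EEF1A1 (-0.07 ± 0.026, adjusted p = 0.0471). ENO1 lost its call without M1 EV replicate 3 (adjusted p = 0.0861) or M2 EV replicate 3 (0.0527). EEF1A1 lost its call under 14 of 20 alternatives, DESeq2 among them (adjusted p = 0.129), and none of these 3 passed the test against 1.2-fold.

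Genes that mark melanoma states did not move in 1 direction. Of 34 tested genes of the undifferentiated and invasive state 11 were higher and 10 lower (32.4% and 29.4%, median -0.02). AXL, a receptor tyrosine kinase that marks this state, measured 1015, 1070 and 1029 CPM in M1 EV and 1304, 1292 and 1289 CPM in M2 EV (-0.32 ± 0.028, adjusted p = 6.74e-12), and did not pass the test against 1.2-fold. SNAI2 (0.39 ± 0.057) and SMAD3 (0.30 ± 0.038) were higher, and WNT5A and EGFR were not called. Of 28 melanocytic genes 12 were tested, with 2 higher and 4 lower (16.7% and 33.3%). The lower genes included GPNMB, a melanosomal glycoprotein (22.2 ± 0.591 CPM against 30.9 ± 0.866 CPM; -0.47 ± 0.071), and the transcription factors SOX9 (-0.28 ± 0.045) and TFAP2A (-0.38 ± 0.075), while MC1R, the melanocortin receptor, was higher (0.30 ± 0.047). Targets of YAP and TEAD, transcriptional effectors of cell spreading and tension, gave 4 higher and 11 lower of 25 tested (16% and 44%, median -0.11), of which 2 of the lower passed the test against 1.2-fold. MYOF, a membrane repair protein, averaged 705 ± 9.22 CPM in M1 EV and 1038 ± 26.7 CPM in M2 EV (SD, n = 3 each; -0.56 ± 0.029, adjusted p = 3.94e-18), with AJUBA at -0.31 and ASAP1 at -0.26. The textbook targets CCN1 (0.11 ± 0.034) and CCN2 (-0.11 ± 0.041) were called in opposite directions.

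Among lists of signalling output, TGF-beta targets had more higher than lower genes and the list of ERK output and feedback more lower than higher genes. Of 22 TGF-beta targets 13 were higher and 3 lower (59.1% and 13.6%, median 0.26), and 7 of the higher passed the test against 1.2-fold. JUNB, an AP-1 subunit, measured 51.0, 51.4 and 45.1 CPM in M1 EV against 23.8, 23.1 and 21.7 CPM in M2 EV (1.11 ± 0.063, adjusted p = 3.72e-17), and BHLHE40, a transcriptional repressor, differed by 0.71 ± 0.056. The ligand TGFB1 was higher by 0.37 ± 0.041, and the inhibitor SMAD7 by 0.29 ± 0.074. Of 23 AP-1 and immediate early factors 8 were higher and 2 lower (34.8% and 8.7%). IER3 (0.84 ± 0.044), CEBPD (1.07 ± 0.066) and CEBPB (0.64 ± 0.054), the last a partner of NF-kB at cytokine genes, were higher. FOS, JUN and ATF3 were not called. Of 20 genes of ERK output and feedback 6 were higher and 10 lower (30% and 50%, median -0.08). The phosphatase DUSP4 averaged 81.5 ± 3.75 CPM in M1 EV and 110.6 ± 4.39 CPM in M2 EV (-0.44 ± 0.045, adjusted p = 6.41e-10), SPRY2, an inhibitor of receptor tyrosine kinase signalling, differed by -0.40 ± 0.063 and CCND1 (cyclin D1) by -0.18 ± 0.029. MYC was higher (0.33 ± 0.048), and DUSP6 was not called (0.09 ± 0.055, adjusted p = 0.257).

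Angiogenic factors gave 10 higher and 4 lower of 19 tested (52.6% and 21.1%). The higher include THBS1 and the lower UNC5B, both described above, and the counts give no net direction for angiogenesis. ESM1 (endocan), a secreted proteoglycan, measured 91.9, 83.0 and 92.4 CPM in M1 EV against 30.3, 29.3 and 31.8 CPM in M2 EV (1.55 ± 0.055, adjusted p = 9.04e-24). STC1 (stanniocalcin-1) averaged 79.98 ± 3.92 CPM in M1 EV and 40.8 ± 1.67 CPM in M2 EV (0.97 ± 0.052), and NRP2, a co-receptor of VEGF-C and class 3 semaphorins, 87.4 ± 0.838 and 48.2 ± 2.58 CPM (SD, n = 3 each; 0.86 ± 0.047). VEGFC differed by 0.41 ± 0.071 and VEGFA by 0.24 ± 0.034. FGF5 (-0.34 ± 0.043), SEMA3A (-0.52 ± 0.073) and ADM (adrenomedullin; -0.42 ± 0.045) were lower.

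Cell cycle genes were mostly not called. Of 32 G1/S genes 7 were higher and 1 lower, and of 30 G2/M genes 8 were higher and 1 lower, with medians of 0.08 and 0.07, and 0 genes of either list passed the test against 1.2-fold. The shares called, 25% and 30%, were near the 24.6% of all tested genes, but most of these calls were higher. Higher and lower shares were 21.9% and 3.12% in G1/S and 26.7% and 3.33% in G2/M, against 12.6% and 12% of all tested genes. CDC25A, a phosphatase that activates cyclin-dependent kinases, differed by 0.30 ± 0.054 (46.7 ± 1.92 CPM against 38.0 ± 1.44 CPM), MCM10, a replication factor, by 0.24, UBE2S, a ubiquitin-conjugating enzyme of mitosis, by 0.27, and PLK1, CCNA2 and UBE2C by 0.16 to 0.17. GINS4 was lower (-0.22). The proliferation marker MKI67 measured 469, 527 and 509 CPM in M1 EV and 500.2, 511 and 484 CPM in M2 EV, overlapping values (0.01 ± 0.051, adjusted p = 0.909). Of 23 p53 targets 6 were higher and 4 lower (26.1% and 17.4%, median 0.01). CDKN1A (p21), an inhibitor of cyclin-dependent kinases, measured 19.0, 17.5 and 19.0 CPM in M1 EV against 7.71, 8.95 and 8.53 CPM in M2 EV (1.12 ± 0.088, adjusted p = 3.69e-13). BAX (0.23), AEN (0.31) and MDM2 (0.16) differed less.

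Among regulators of apoptosis, 9 of 27 were higher and 4 lower (33.3% and 14.8%, against 12.6% and 12% of all tested genes). BIRC3 (cIAP2), an inhibitor of cell death, measured 62.3, 53.6 and 66.1 CPM in M1 EV against 13.4, 15.6 and 13.1 CPM in M2 EV (2.10 ± 0.074, adjusted p = 9.04e-24). BIRC2 (cIAP1; 0.50 ± 0.047) and MCL1, a survival protein of the BCL2 family (0.34 ± 0.032), were higher, and so were the death receptor TNFRSF10B (134 ± 1.37 CPM in M1 EV, 96.9 ± 1.52 CPM in M2 EV; 0.47 ± 0.038) and CASP4, the caspase that senses bacterial lipopolysaccharide in human cells (0.51 ± 0.060). BCL2L1 (BCL-xL), also a survival protein, was lower (-0.25 ± 0.037). Inhibitors and effectors of cell death were thus both among the higher genes.

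Lists of housekeeping and stress programmes had medians between -0.05 and 0.29. Chaperones gave 13 higher and 1 lower of 18 (72.2% and 5.56%, median 0.17), with HSP90AB1 at 1606 ± 36.2 CPM in M1 EV and 1339 ± 36.9 CPM in M2 EV (SD, n = 3 each; 0.26 ± 0.028), HSPD1 at 0.28, HSPA9 at 0.23 and the endoplasmic reticulum chaperone HSPA5 at 0.21, yet 0 passed the test against 1.2-fold. BAG3, a co-chaperone, was the lower gene (-0.19 ± 0.038). Of 25 genes of the integrated stress response and unfolded proteins 4 were higher and 5 lower. These were 16% and 20%, against 12.6% and 12% of all tested genes. SDF2L1 (0.25) was among the higher, and PHGDH (-0.22), SLC7A11 (-0.30) and AARS1 (-0.13) among the lower. ATF4 and DDIT3 were not called. Cholesterol synthesis gave 1 higher gene (INSIG1, 0.14) and 5 lower of 23 (LSS -0.13, MVD -0.16). These were 4.35% and 21.7%, against 12.6% and 12% of all tested genes, although the 26.1% called in either direction was near the 24.6%. Hypoxia and glycolysis gave 6 higher and 7 lower of 31 (19.4% and 22.6%), with PFKFB3 at 0.28 and HK1 at 0.18. NRF2 and antioxidant genes gave 4 higher and 4 lower of 21 (19% each). SOD2, described above, differed by 1.66 and FTH1, the ferritin heavy chain, was higher by 0.25. NQO1, a quinone reductase, averaged 323 ± 16.7 CPM in M1 EV and 416 ± 7.94 CPM in M2 EV (-0.37 ± 0.035, adjusted p = 1.01e-10), and CAT (catalase) was lower by -0.32. Genes of zinc handling gave 5 higher and 1 lower of 8 (62.5% and 12.5%). MT2A, a metal-binding metallothionein, averaged 627 ± 39.7 CPM in M1 EV and 439.8 ± 9.14 CPM in M2 EV (0.51 ± 0.037, adjusted p = 5.03e-14). The importers SLC39A14 and SLC39A10 differed by 0.38 and 0.41, and MT1E, which shares much of its sequence with other metallothioneins, was lower (-0.27). Of 26 lysosomal and endosomal genes 4 were higher and 7 lower (15.4% and 26.9%). The higher included CTSS (1.82), CTSL (0.41) and the cholesterol exporter NPC1 (0.39). The lower included NPC2 (-0.37) and the tetraspanins CD9 (-0.58 ± 0.040) and CD63 (-0.23), which are themselves widely used as vesicle markers. The mitochondrially encoded genes tested, MT-RNR1 and MT-RNR2, were not called.

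**Figure D4:**
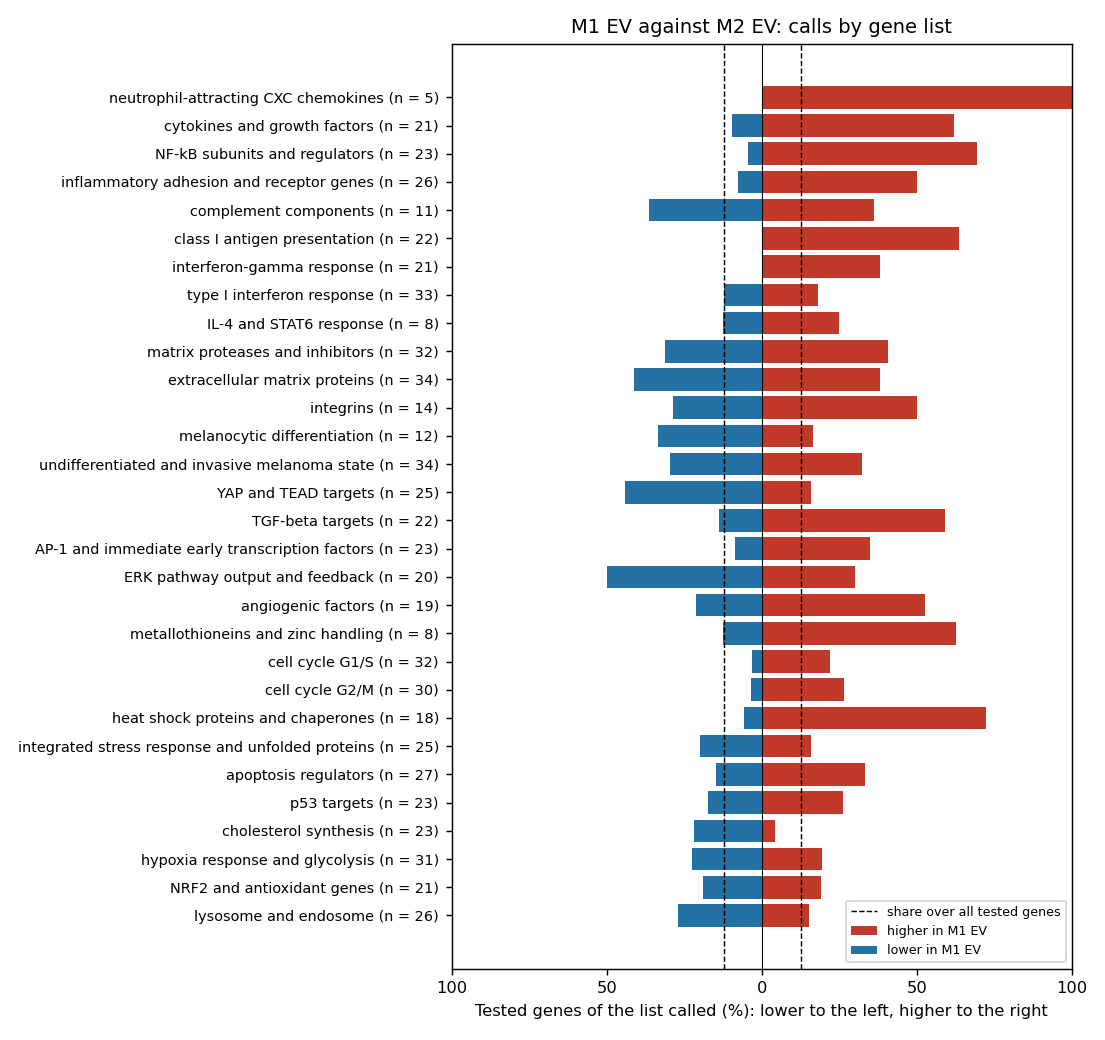
Share of the tested genes of each list that were called lower (blue, to the left) or higher (red, to the right) in M1 EV against M2 EV, in percent, for 30 lists with the number tested in brackets; dashed lines are the 12% and 12.6% of all tested genes called lower and higher. Chemokines reach 100% higher, while matrix proteins, proteases and integrins extend to both sides.

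The genes in which M2 EV differed from Ctrl were then set beside the M1 EV values. Of these 6, CXCL5 and ESM1 were higher in M2 EV than in Ctrl and UNC5B, SECTM1, TNFRSF21 and PKNOX2 were lower. Both comparisons use the same M2 EV libraries, so their values are not independent. In 5 of the 6 genes the M1 EV libraries lay beyond the M2 EV libraries on the side away from Ctrl; over all tested genes, 18.1% had M1 EV libraries all above those of M2 EV and 18.4% all below. CXCL5 averaged 343 CPM in M1 EV, 36.8 in M2 EV, 33.6 in M0 EV and 28.3 in Ctrl, and ESM1 89.1, 30.5, 27.9 and 23.7 CPM. UNC5B averaged 7.06 CPM in M1 EV, 15.1 in M2 EV, 14.5 in M0 EV and 20.3 in Ctrl. SECTM1, a secreted and transmembrane protein, measured 43.7, 44.8 and 45.1 CPM in M1 EV against 76.6, 68.0 and 74.9 CPM in M2 EV (-0.71 ± 0.056, adjusted p = 6.31e-13), and averaged 77.8 CPM in M0 EV and 87.6 CPM in Ctrl. TNFRSF21 (death receptor 6) measured 186, 194 and 190.8 CPM in M1 EV against 253, 244 and 255 CPM in M2 EV (-0.39 ± 0.035, adjusted p = 1.37e-11), and averaged 255 CPM in M0 EV and 281 CPM in Ctrl. PKNOX2, a homeobox gene, was the exception: 20.8, 21.1 and 21.8 CPM in M1 EV overlapped with 21.8, 19.9 and 19.9 CPM in M2 EV (0.05 ± 0.073, adjusted p = 0.659) and M0 EV averaged 21.0 CPM, against 25.7 CPM in Ctrl. The levels of M2 EV and M0 EV were close in all 6 genes; that pair was not tested here. The count of 6 was not stable. It was 1 with DESeq2 and 62 when only the 6 libraries of M2 EV and Ctrl entered, and leaving out 1 library gave 48 without M0 EV replicate 1, 24 without Ctrl replicate 2, 3 without M0 EV replicate 2, 1 without Ctrl replicate 3, M2 EV replicate 1 or M2 EV replicate 2, and 0 without Ctrl replicate 1 or M2 EV replicate 3. Before adjustment, 814 genes had a p below 0.05 in that comparison.

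**Figure D5:**
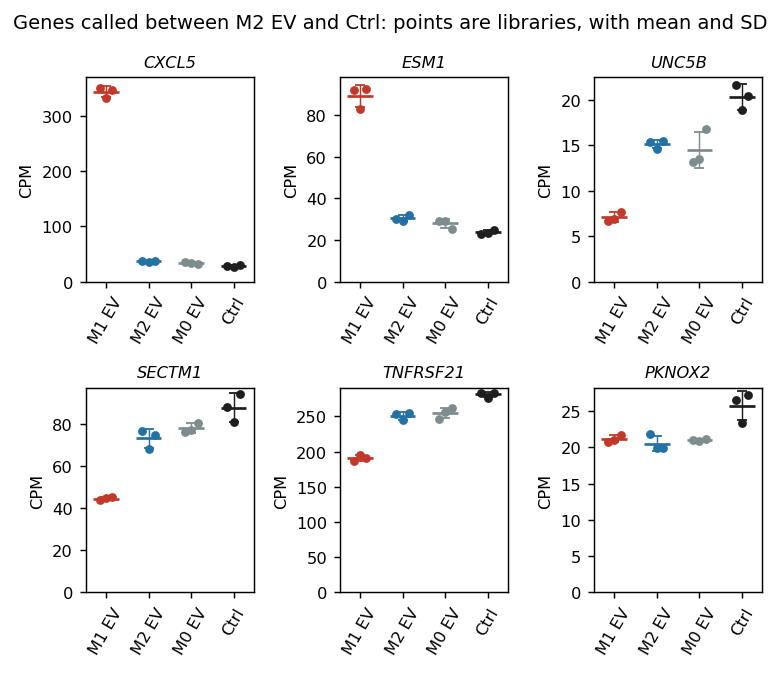
Level in CPM (vertical axes, from 0) in each library of the 6 genes called between M2 EV and Ctrl; points are libraries, lines are means and error bars are SD (n = 3), for M1 EV, M2 EV, M0 EV and Ctrl. For CXCL5, ESM1, UNC5B, SECTM1 and TNFRSF21 the M1 EV points lie beyond those of M2 EV on the side away from Ctrl, and for PKNOX2 they overlap at 19.9 to 21.8 CPM.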

How the data were processed

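Per the labels' protocols, RNA was isolated with RNeasy Plus, made into strand-specific libraries after poly(A) selection and sequenced on a NovaSeq X Plus. Per the submitters' processing notes, STAR 2.6.1b, HOMER 4.10 and hg38 were used; the sources used here do not give the strand setting of the counting. The authors deposited expected counts for 70507 transcripts, without normalization, in steps of 0.5. The column taken as M0 EV replicate 1 spells the line without its digit. RefSeq GRCh38.p14 named 69830 transcripts and GENCODE 29 a further 327; the other 350 were not used. Counts of the highest transcript per gene (28087 genes) were rounded, so reads of other isoforms, and of overlapping or antisense genes, can move a value. Library totals ran between 9694683 and 14379483.

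In R 4.3.3, edgeR 4.0.16 (filterByExpr with a minimum count of 10 and a total of 15, and TMM) fitted a quasi-likelihood model of 4 groups. The fit covered 13113 genes in 12 libraries with 8 residual degrees of freedom. A prior count of 2 entered only the log2 CPM used for principal components and replicate correlations. Tests were 2-sided, with Benjamini-Hochberg adjustment over all genes. The SE of a log2 fold change is the one implied by the test: its size divided by the square root of the F statistic. CPM are TMM-scaled. The scripts were tested on simulated data. Alternatives were DESeq2 1.42.0, limma-voom (limma 3.58.1), RLE scaling, no filter, only the 6 libraries compared, a replicate block, thinned counts, glmTreat and leaving out each library.

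The members, 35 gene lists and the naming rule were chosen with earlier results of these data known. The rule took the 12 largest rises and 10 largest falls (called, mean of at least 1 CPM, no overlap of libraries), the 6 rises and 6 falls largest in CPM, up to 4 genes per list by adjusted p, 25 fixed genes and those called in M2 EV against Ctrl; its ranked parts left out unnamed loci and small RNA, antisense, host and read-through genes. Other genes of the lists are named after their values were seen. Some genes of the lists are not reported here.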

Additional observations from a re-analysis of the deposited data

How the results depend on the processing

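Of the 3229 genes called between M1 EV and M2 EV, 98.6% were also called by limma-voom, 98.9% with RLE scaling and 93.1% without the filter on low counts. Under any alternative run, 0 were called in the opposite direction. The count moved with 2 alternatives: DESeq2 called 2098 genes (997 of them lower), and the test against 1.2-fold called 477 (228 higher, 249 lower). Without the filter, the genes called lower by at least 2-fold numbered 71 in place of 47. Leaving out 1 library gave 2550 to 3383 calls. For M2 EV against Ctrl, 6 calls became 1 with DESeq2, 31 without the filter, 62 with only the 6 libraries, 1 with thinned counts, 0 against 1.2-fold, and 0 to 48 with 1 library left out; the cause was not tested. MKI67, not called, changed sign without M1 EV replicate 2 (-0.0251, adjusted p = 0.82) and without M2 EV replicate 3 (-0.00877, adjusted p = 0.942); over all libraries left out its log2 value ran up to 0.0589.

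The deviations of same-numbered M1 EV and M2 EV libraries from their group means were weakly correlated (0.0254, 0.0372 and 0.0776). Replicates differed by little more than counting noise, so this check cannot tell whether same-numbered libraries share a culture or preparation. With the replicate number as a block 3318 genes were called, sharing 99.7% of the 3229, and 7 genes for M2 EV against Ctrl.

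Depth limits low genes: 4.83% of genes below 1 CPM were called, against 38.9% at 100 CPM or more.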

Other observations

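Calls between M1 EV and M2 EV were spread over the genome, with 18.1% of tested genes called on chromosome 13 and 29.8% on chromosome 8. Some inflammatory genes were too low to be tested but had counts in every M1 EV library: CSF2, a growth factor of granulocytes and macrophages, had 6, 5 and 12 counts in M1 EV libraries and 1, 2 and 2 in M2 EV libraries, EBI3, a subunit of interleukins of the IL-12 family, had 12, 9 and 14 against 8, 6 and 4, and BCL2A1, a survival protein, had 5, 3 and 8 against 2, 4 and 1. These genes were chosen after their values were seen, and library totals differ between the groups.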
